A study of Homo sapiens with 6 samples.

Results

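The gene set comprised the transcription factor SRF and 9 genes of the actin contractile apparatus, namely ACTA2, ACTG2, TAGLN, CNN1, MYL9, TPM1, TPM2, FLNA and VCL. They were taken by name, and all 10 were found among the 58735 genes of the deposited table. RNA-seq had been performed in HEY, a human ovarian cancer cell line, with 3 libraries of cells that received an empty vector (Vector) and 3 of cells that received a plasmid for CSGALNACT2 (oeCSGALNACT2), an enzyme that initiates and extends chondroitin sulfate chains. All cells were grown in the same serum-containing medium. The study's methods describe transfection, whereas a legend of the article describes stable overexpression, and no source says whether replicate libraries were made from separate cultures. The p-values therefore cover the scatter among these 6 libraries, part of which may be technical, and fewer cells with a transcript cannot be told apart from less of it per cell. The comparison asked how the contractile genes differed when CSGALNACT2 was raised in 1 cell line.

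SRF binds a short DNA element named the CArG box. It works with cofactors of 2 kinds: the MRTF proteins, which are held in the cytoplasm by monomeric actin and released when actin polymerizes, and the ternary complex factors (TCF) of the ELK family, which are switched on by phosphorylation through MAPK/ERK. The MRTF branch is known for cytoskeletal and contractile genes, and the TCF branch for immediate early genes such as EGR1. ACTA2 and ACTG2 are smooth muscle actins, TAGLN and CNN1 bind and stabilize actin filaments, MYL9 is a regulatory light chain of myosin II, tropomyosins coat the filament, filamin A crosslinks filaments, and vinculin ties them to integrin adhesions.

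The promoters were read first, because the CArG box is the element through which SRF acts. In the RefSeq promoter table (GRCh38.p14, 250 bases before to 50 after each gene start), 8 of the 10 genes had a window. TAGLN and MYL9 had none. A CArG box (CC, then 6 bases of A or T, then GG, which reads as the same pattern on both strands) was found for 3 of these 8 genes, and for 438 of all 27305 genes with a window, a share of 1.604%. The match is a description of the letters, and binding was not measured. Boxes with a mismatched base or outside the window were not searched, so a gene without a match here may still have one. The 3 genes with a box are shown from 120 bases before to 20 after the start with the box in capitals, beside EGR1, a TCF target with its values given below.

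SRF (chr6:43171149-43171288, plus strand): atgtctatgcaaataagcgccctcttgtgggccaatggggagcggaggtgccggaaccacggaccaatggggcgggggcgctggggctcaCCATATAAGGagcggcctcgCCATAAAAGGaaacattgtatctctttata

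ACTG2 (chr2:73892888-73893027, plus strand): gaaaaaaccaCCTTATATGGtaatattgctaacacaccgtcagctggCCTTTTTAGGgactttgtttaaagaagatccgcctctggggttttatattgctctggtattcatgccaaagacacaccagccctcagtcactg

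FLNA (chrX:154374615-154374754, minus strand): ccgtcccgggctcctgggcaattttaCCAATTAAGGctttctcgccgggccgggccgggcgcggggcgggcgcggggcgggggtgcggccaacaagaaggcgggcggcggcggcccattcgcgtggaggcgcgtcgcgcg

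EGR1 (chr5:138465359-138465498, plus strand): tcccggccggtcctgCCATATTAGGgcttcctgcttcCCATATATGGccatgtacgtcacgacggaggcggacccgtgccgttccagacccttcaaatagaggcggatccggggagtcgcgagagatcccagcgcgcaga

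The boxes of SRF began 30 and 10 bases before the start, those of ACTG2 110 and 73 bases before it, that of FLNA 94 bases before it, and those of EGR1 105 and 83 bases before it. As the values below show, these 4 genes differed in expression. ACTG2 was not detected, SRF and FLNA were expressed with overlapping groups, and EGR1 was far lower in oeCSGALNACT2 cells.

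Values are given as FPKM, that is reads scaled by gene length and by library size, in the order of replicates 1, 2 and 3. CSGALNACT2 was 10.5 ± 4.13 FPKM in Vector and 466 ± 63.6 in oeCSGALNACT2 cells (SD, n = 3 each), so this gene was raised in every library labelled with it (reads of the plasmid and of the cells' own gene cannot be told apart). The depth was 15628834 to 18186682 reads per library. Replicate 1 of both groups stood apart from the others: the Pearson correlation of log2(FPKM + 1) was 0.990 between Vector 2 and 3 and 0.985 between oeCSGALNACT2 2 and 3, whereas that of Vector 1 was 0.913 with Vector 2 and 0.930 with oeCSGALNACT2 1. Across 11476 genes, the log2 difference of replicate 1 from replicates 2 and 3 fell with the GC content of the transcript (Pearson r = -0.817, Spearman correlation -0.836, a description across genes, which share these libraries). The GC content of the members ranged from 45.07% in VCL to 62.25% in FLNA. Replicate 1 differed from the mean of the others by -1.81 on the log2 scale for FLNA, -1.12 for MYL9, -0.97 for SRF and 0.25 for TPM1. Of the cell type markers, the keratins KRT8 and KRT18 were higher in every oeCSGALNACT2 library than in any Vector library (means of 188.5 against 79.2 FPKM and 189 against 107 FPKM, with adjusted p = 0.000387 and 0.00151 in limma with a term for the replicate number, and 0.105 and 0.200 without it), and PAX8 ranged from 23.7 to 58.5 FPKM, while EPCAM did not exceed 1.23, CDH1 did not exceed 0.0197 and MUC16 was at 0.00134 or less.

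**Figure D1:**
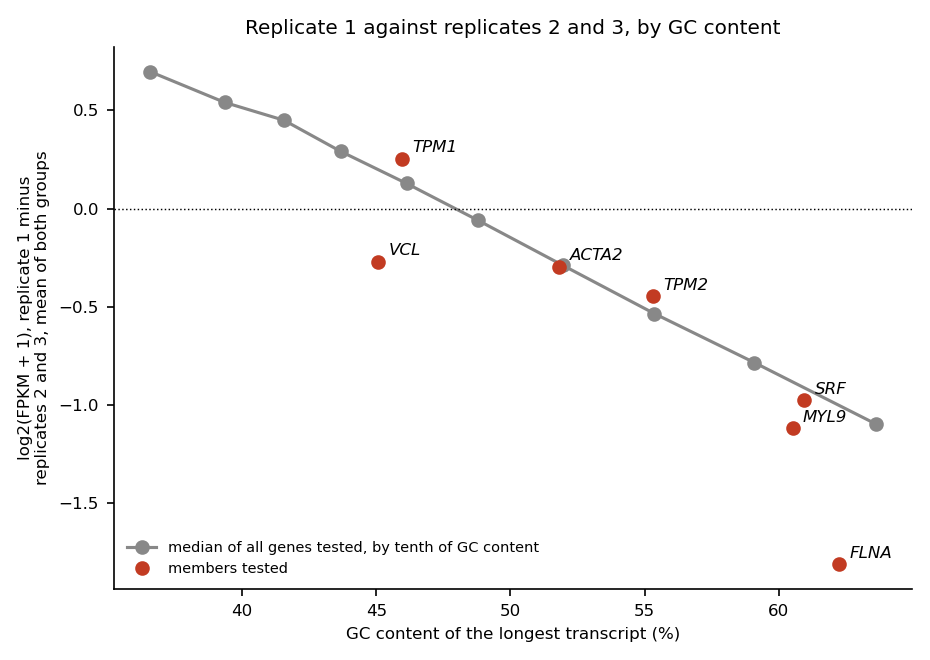
The vertical axis is the difference of log2(FPKM + 1) between replicate 1 and replicates 2 and 3, averaged over both groups, and the horizontal axis is the GC content of the longest transcript. Grey points are medians of 10 equal bins of all genes tested, which run from 0.70 to -1.10, and red points are the 7 members tested, of which FLNA lies lowest at -1.81.

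Of the 10 members, 7 had a mean of at least 1 FPKM and were tested with limma on log2(FPKM + 1). None of the 7 passed an adjusted p of 0.05 in either direction, against 0.505% of 11479 genes that were higher and 0.845% that were lower in oeCSGALNACT2 cells. At an unadjusted p under 0.05 there was 1 member (TPM1), against 17.1% of all genes. In edgeR without the block 0 of 8 members tested were called, where 60 of 14309 genes were higher and 79 lower. Libraries were also paired by replicate number, although the labels state no pairing and the values set only replicate 1 clearly apart. This paired fit (the replicate block) called 3 members higher (TPM1, ACTA2 and VCL) and 0 lower. In that setting 21.2% of all genes were higher and 22.5% lower. The median log2 fold change of the 7 members was 0.25, beside -0.01 over all genes tested. The groups did not overlap for 2 of the 7 (ACTA2 and TPM1, both higher), where 11.2% of all genes tested were higher without overlap. ACTG2, TAGLN and CNN1 were below 1 FPKM on average and are described by their reads.

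**Figure D2:**
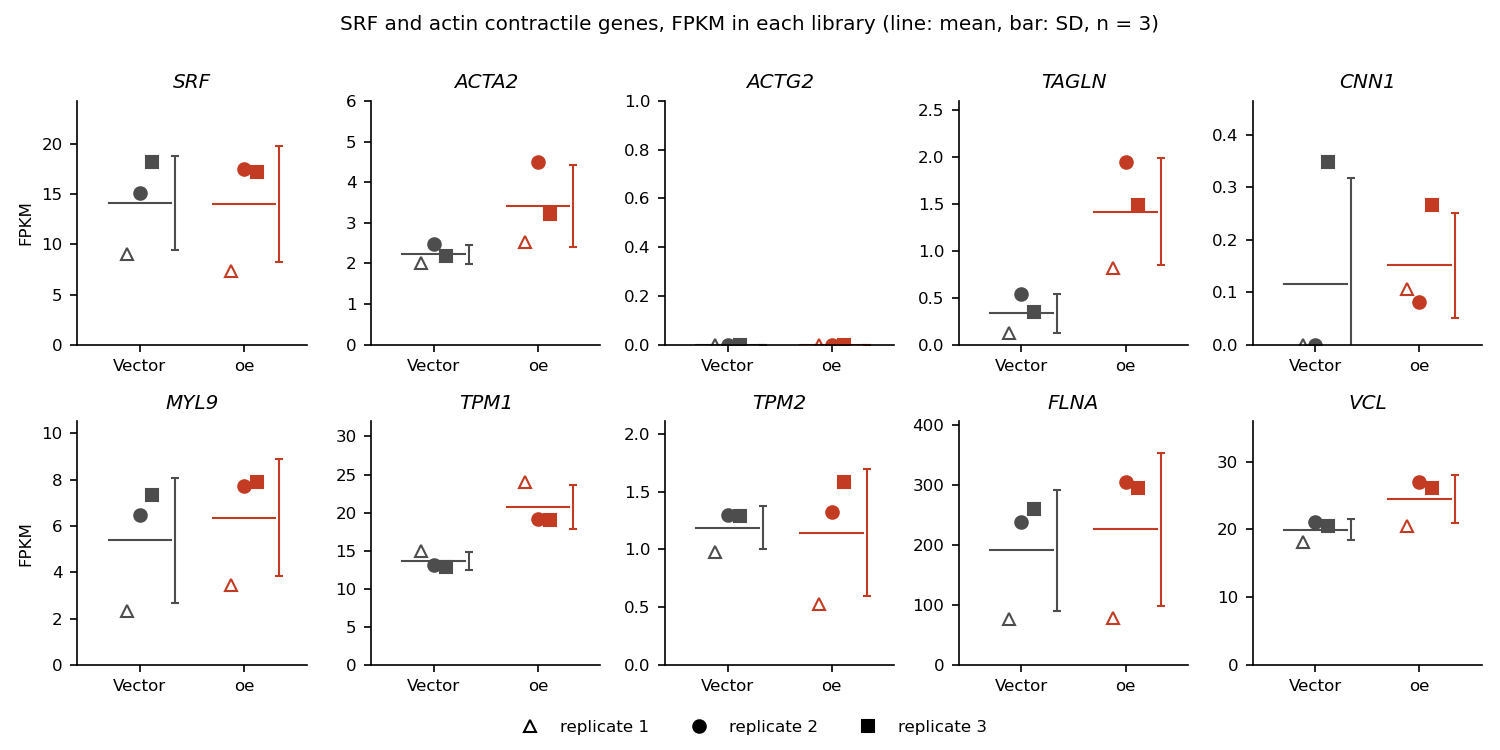
Each panel shows the FPKM of 1 member in the 3 Vector and the 3 oeCSGALNACT2 libraries (oe), with the mean as a line and the SD as a bar at its right, which ends at 0 for CNN1 in Vector. TPM1, ACTA2 and TAGLN did not overlap between the groups, and replicate 1 (open triangle) was lowest in both groups for SRF, MYL9, TPM2, FLNA, VCL, ACTA2 and TAGLN and highest for TPM1.

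SRF (chr6:43171299-43181507, gene coordinates on GRCh38 here and below) was expressed at the same mean level in both groups. It measured 9.04, 15.1 and 18.2 FPKM in Vector and 7.32, 17.5 and 17.2 FPKM in oeCSGALNACT2 cells. Replicate 1 was the lowest in each group and the groups overlapped. The log2 fold change was -0.05 (95% interval -1.0 to 0.90, adjusted p = 0.972, limma), and the interval narrowed to -0.31 to 0.21 with the replicate block (adjusted p = 0.720).

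The cofactors of SRF differed in level and direction. MYOCD, the smooth muscle cofactor, was listed at 0 in all 6 libraries. The other 5 of the 6 cofactors were tested with limma, with a median log2 fold change of 0.06. There were 0 calls among them, where 0.505% of all genes were higher and 0.845% lower. At an unadjusted p under 0.05 there was 1, against 17.1% of all genes. ELK3, the most abundant of them, was 235, 169.6 and 161 FPKM in Vector and 128, 98.2 and 96.9 FPKM in oeCSGALNACT2 cells. ELK3 was lower in each oeCSGALNACT2 library than in any Vector library, by -0.79 on the log2 scale (SE 0.21, adjusted p = 0.136, limma, and 0.000971 with the replicate block). ELK1 overlapped between the groups, with a log2 fold change of 0.06 (adjusted p = 0.958, limma). With the block, ELK4 was lower as well (log2 fold change -0.39, adjusted p = 0.00787, limma). MRTFA, the actin-sensing coactivator, was higher with the block (0.32, adjusted p = 0.0247, limma). That call was lost once the GC trend was removed as well (0.18, adjusted p = 0.104, limma). The block called 21.2% of all genes higher and 22.5% lower.

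Among the actins, the smooth muscle forms were scarce. ACTG2 (chr2:73892314-73919865) had 0 reads in all 6 libraries, which allows up to 0.0430 to 0.0484 FPKM per library at 3 reads, a limit that covers counting error only. ACTA2 (chr10:88935074-88991339) measured 2.02, 2.48 and 2.18 FPKM in Vector and 2.52, 4.50 and 3.22 FPKM in oeCSGALNACT2 cells. Every oeCSGALNACT2 library was above every Vector library, although Vector 2 and oeCSGALNACT2 1 were close. The log2 difference was 0.43 (SE 0.20, adjusted p = 0.356, limma), and ACTA2 passed with the replicate block (adjusted p = 0.0343). The ratios of the replicate pairs were 1.25, 1.82 and 1.47. ACTA2 overlaps STAMBPL1 (group means 1.56 and 1.79 FPKM) and FAS, a death receptor gene, both on the opposite strand. FAS measured 10.9, 5.65 and 5.78 FPKM in Vector and 21.4, 9.90 and 10.5 FPKM in oeCSGALNACT2 cells. Use of strand in counting is not stated, so reads of their shared bases cannot be told apart. The coding sequence of ACTA2 is also related to those of ACTB and ACTG1.

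The cytoplasmic actins made up nearly all actin mRNA. ACTB was 574, 744 and 795 FPKM in Vector and 956, 1129 and 1205 FPKM in oeCSGALNACT2 cells, without overlap (log2 fold change 0.65, SE 0.18, adjusted p = 0.141, limma, and 0.00238 with the replicate block). ACTG1 was 812, 925 and 949.9 FPKM in Vector and 885, 1072 and 1111 FPKM in oeCSGALNACT2 cells and overlapped (log2 fold change 0.19, adjusted p = 0.591, limma). Within a library, the share of actin FPKM from ACTB was 43.8% ± 2.17 in Vector and 51.7% ± 0.420 in oeCSGALNACT2 cells, and that from ACTG1 was 56.1% ± 2.16 and 48.2% ± 0.382 (SD, n = 3 each), both without overlap. The share of ACTA2 was 0.140% ± 0.0127 and 0.160% ± 0.0384 (SD, n = 3 each) and overlapped, so ACTA2 was not separated from the rest of the family by this measure. With 3 libraries against 3, an exact two-sided permutation test of a share cannot go below p = 0.1, the value reached by each share without overlap.

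TAGLN (chr11:117199321-117204782) had the highest fold difference of the members, from very low levels. It measured 0.124, 0.537 and 0.347 FPKM in Vector and 0.815, 1.95 and 1.49 FPKM in oeCSGALNACT2 cells. These values came from 8, 38 and 23 reads against 52, 130 and 107 reads, a total of 69 against 289. The groups did not overlap, and the ratio was above 1 in all 3 pairs (6.57, 3.63 and 4.31). The ratio of means was 4.22, and it ranged from 3.21 to 6.03 when each library was left out in turn. TAGLN was the 1 member called when DESeq2 was run on the recovered reads (log2 fold change 2.07, SE 0.59, adjusted p = 0.0149), which called 1.94% of genes higher. edgeR gave a log2 fold change of 2.10 (adjusted p = 0.139), and 2.18 with the replicate block (adjusted p = 0.000255). That blocked edgeR fit called 22.2% of all genes higher and 5 members (TAGLN, TPM1, VCL, ACTA2 and FLNA). The end of TAGLN overlaps PCSK7 on the opposite strand, whose pairs gave 0.736 and 0.774, 1.03 and 1.95, and 1.21 and 1.82 FPKM in Vector and oeCSGALNACT2 cells. The part of these overlapping reads in TAGLN was not tested.

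The relatives of TAGLN and CNN1 were much more abundant than either. TAGLN2, the transgelin of non-muscle cells, held 99.1% of the family FPKM in both groups, and its levels of 123 to 206 FPKM in Vector and 146 to 205 FPKM in oeCSGALNACT2 cells overlapped. CNN1 (chr19:11538717-11550323), a calponin of smooth muscle, had 0, 0 and 17 reads in Vector and 5, 4 and 14 reads in oeCSGALNACT2 cells, and the single Vector library with reads exceeded all others. CNN3, a calponin of non-muscle cells, was 109, 92.4 and 90.4 FPKM in Vector and 154, 116 and 128 FPKM in oeCSGALNACT2 cells, without overlap (log2 fold change 0.44, SE 0.18, adjusted p = 0.280, limma, and 0.00509 with the replicate block). CNN2 was 10.0, 26.1 and 28.5 FPKM in Vector and 15.8, 38.7 and 37.1 FPKM in oeCSGALNACT2 cells, with replicate 1 low in both groups. CNN2 differed by 0.51 on the log2 scale (SE 0.50, adjusted p = 0.674, limma, and 0.00453 with the replicate block).

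Defining genes of smooth muscle were at or near 0 in both groups. Of 6 smooth muscle markers, 5 were under 1 FPKM in every library, with MYH11, the smooth muscle myosin heavy chain, at no more than 0.0566 FPKM. The summed level of these markers was 3.62 to 10.1 FPKM in Vector and 6.80 to 16.8 FPKM in oeCSGALNACT2 cells, nearly all of it from SMTN, a protein of actin stress fibers that measured 3.51, 8.75 and 9.62 FPKM against 6.57, 14.9 and 16.5 FPKM. SMTN was higher in each pair and passed with the replicate block (log2 fold change 0.72, adjusted p = 0.485, limma, and 0.00141 with the block). The summed level of 6 fibroblast and pericyte markers overlapped (3.29 to 5.22 FPKM in Vector and 3.04 to 5.70 FPKM in oeCSGALNACT2 cells). All 3 leukocyte markers were under 1 FPKM throughout, and of 3 endothelial markers CDH5 fell outside this pattern, at 19.5 to 30.5 FPKM in Vector and 6.19 to 10.2 FPKM in oeCSGALNACT2 cells.

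MYL9 (chr20:36541484-36551447) was moderately expressed and followed the replicate more than the group. It measured 2.31, 6.48 and 7.33 FPKM in Vector and 3.46, 7.73 and 7.89 FPKM in oeCSGALNACT2 cells. Replicate 1 reached 33.4% of the mean of the other Vector libraries and 44.3% of that of the other oeCSGALNACT2 libraries, and the groups overlapped. MYL9 was higher in all 3 pairs (1.5, 1.19 and 1.08), with a log2 difference of 0.25 (SE 0.44, adjusted p = 0.835, limma, and 0.0773 with the replicate block). Its more abundant relative MYL12B was 291, 195 and 183 FPKM in Vector and 249.7, 131 and 133 FPKM in oeCSGALNACT2 cells, lower in each pair (log2 fold change -0.42, adjusted p = 0.574, limma, and 0.0133 with the replicate block). MYH9, the main non-muscle myosin heavy chain of these cells, overlapped between the groups (log2 fold change 0.15, adjusted p = 0.931, limma). Of the 6 myosin II genes tested with limma 0 passed, where 0.505% of all genes were higher and 0.845% lower. At an unadjusted p under 0.05 there was 1, where all genes gave 17.1%. With the block 2 were higher (MYL6 and MYH10) and 2 lower (MYL12A and MYL12B), where 21.2% of all genes were higher and 22.5% lower.

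TPM1 (chr15:63042632-63071915) gave the clearest difference among the members tested. It measured 15.0, 13.1 and 12.9 FPKM in Vector and 24.0, 19.2 and 19.0 FPKM in oeCSGALNACT2 cells. All oeCSGALNACT2 libraries were above all Vector libraries, and replicate 1 was the highest in each group. The pair ratios were 1.6, 1.46 and 1.48, and the log2 difference was 0.56 (SE 0.17, adjusted p = 0.169, limma). TPM1 passed with the replicate block (adjusted p = 0.00257). After a GC correction of each library it also passed (log2 fold change 0.59, adjusted p = 0.00528), and there it was the 1 member called and 11.9% of all genes were higher. With this correction and the block together, TPM1, ACTA2 and VCL were called, with 21.1% of all genes higher. In replicates 2 and 3 alone, where 21.1% of all genes were called higher as well, TPM1 had a log2 fold change of 0.52 (adjusted p = 0.00310).

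TPM2 (chr9:35681992-35690121) did not follow TPM1. It measured 0.973, 1.30 and 1.29 FPKM in Vector and 0.530, 1.32 and 1.58 FPKM in oeCSGALNACT2 cells, with overlap and pair ratios on both sides of 1 (0.544, 1.02 and 1.23). The log2 fold change of TPM2 was -0.06 (95% interval -0.63 to 0.51, adjusted p = 0.936, limma). TPM3 and TPM4 carried most of the tropomyosin mRNA. TPM3 was 86.6, 68.8 and 68.3 FPKM in Vector and 118, 94.97 and 96.8 FPKM in oeCSGALNACT2 cells (log2 fold change 0.47, SE 0.18, adjusted p = 0.263, limma, and 0.00277 with the replicate block). TPM4 was 99.9, 90.0 and 86.1 FPKM in Vector and 92.6, 78.6 and 81.3 FPKM in oeCSGALNACT2 cells (log2 fold change -0.13, adjusted p = 0.747, limma). Within the family, TPM1 took 7.54% ± 0.116 of the FPKM in Vector and 9.89% ± 0.321 in oeCSGALNACT2 cells, TPM3 took 41.0% ± 1.58 and 49.3% ± 0.797, and TPM4 took 50.8% ± 1.33 and 40.3% ± 0.796 (SD, n = 3 each). None of these 3 shares overlapped between the groups. The shares are not independent of each other because they add up to the whole.

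**Figure D3:**
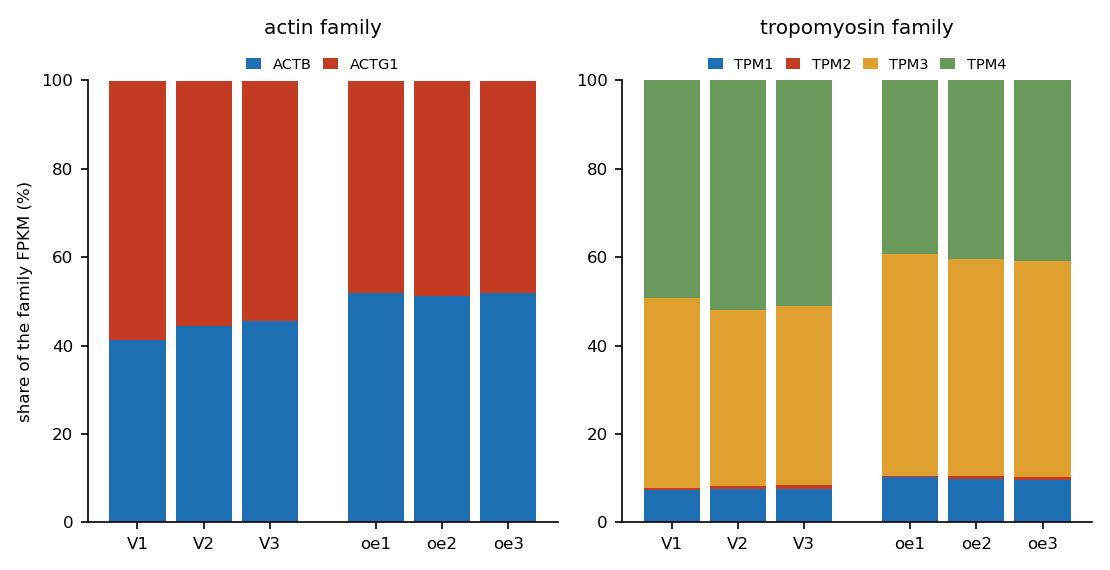
Stacked bars give the share of each gene in the summed FPKM of the actin and tropomyosin families in percent, for the Vector (V1 to V3) and oeCSGALNACT2 (oe1 to oe3) libraries. The shares of ACTB, TPM1 and TPM3 were higher and those of ACTG1 and TPM4 lower in every oeCSGALNACT2 library than in any Vector library, and genes that hold under 0.3% of a family, ACTA2 among them, are not drawn.

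FLNA (chrX:154348524-154374638) was the most abundant member, ranking 123 of all genes by mean FPKM, and the one with the widest spread between replicates. It measured 75.7, 238 and 260.3 FPKM in Vector and 78.3, 305 and 295 FPKM in oeCSGALNACT2 cells. Replicate 1 was at 30.4% and 26.1% of the mean of the others in the Vector and oeCSGALNACT2 groups, and the groups overlapped. The log2 difference was 0.19 (SE 0.69, adjusted p = 0.929, limma, and 0.0932 with the replicate block), and it was 0.05 after the GC correction (adjusted p = 0.925). FLNC, the filamin of striated muscle, was 9.85, 32.7 and 35.4 FPKM in Vector and 12.6, 64.2 and 62.8 FPKM in oeCSGALNACT2 cells, higher in each pair (log2 fold change 0.70, SE 0.75, adjusted p = 0.707, limma, and 0.0102 with the replicate block).

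VCL (chr10:73995193-74121363) measured 18.2, 21.1 and 20.5 FPKM in Vector and 20.5, 27.0 and 26.1 FPKM in oeCSGALNACT2 cells. Replicate 1 of the oeCSGALNACT2 cells lay within the range of the Vector libraries, while the others lay above it. The pair ratios were 1.13, 1.28 and 1.27, with a log2 difference of 0.28 (SE 0.18, adjusted p = 0.490, limma). VCL passed with the replicate block (adjusted p = 0.0215). Part of VCL overlaps AP3M1 on the opposite strand, whose group means were 15.5 and 16.6 FPKM. The proteins that join vinculin in focal adhesions gave counts near those of all genes in limma without and with the block. Of 17 tested, VCL included, 0 passed in limma, where 0.505% of all genes were higher and 0.845% lower. At an unadjusted p under 0.05 there were 3, where all genes gave 17.1%. With the block 5 were higher and 5 lower (21.2% and 22.5% of all genes). After the GC correction with the block 3 were higher and 6 lower, where 2421 of 11476 genes were higher and 2471 lower. ACTN4, an actin crosslinker, was 65.5, 157 and 173 FPKM in Vector and 80.3, 221 and 234 FPKM in oeCSGALNACT2 cells (log2 fold change 0.40, adjusted p = 0.768, limma, and 0.00687 with the replicate block). TLN1, which couples vinculin to integrins, overlapped (log2 fold change 0.09, adjusted p = 0.959, limma).

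**Figure D4:**
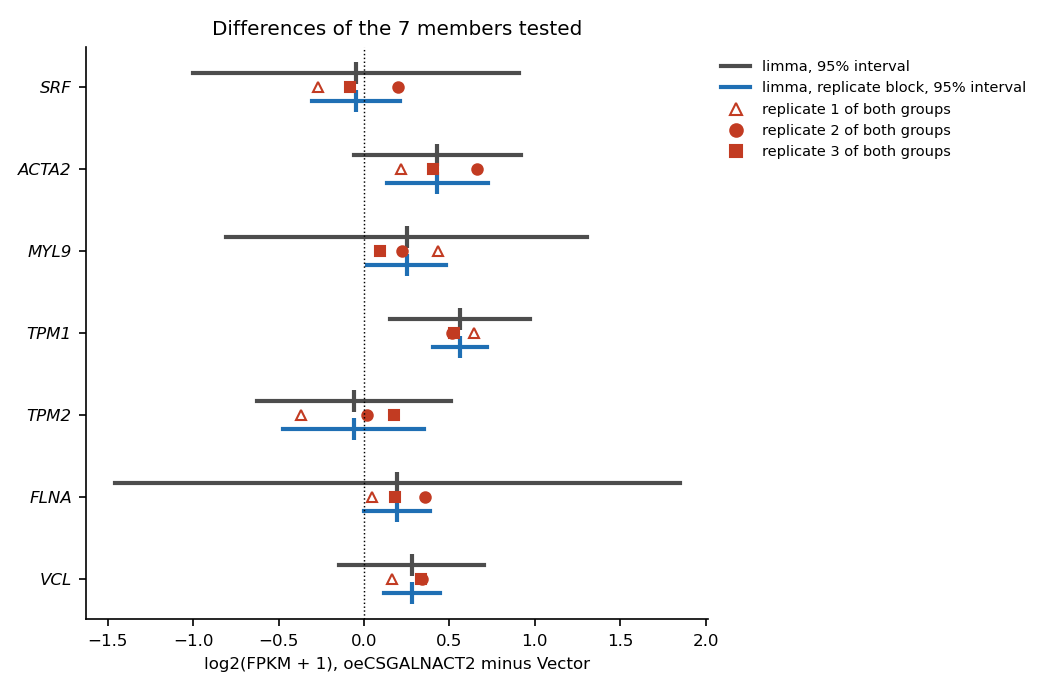
The horizontal axis is the difference of log2(FPKM + 1) between oeCSGALNACT2 and Vector for the 7 members tested, with red symbols for the replicate pairs and bars for the 95% intervals of limma without (grey) and with (blue) the replicate block. The 3 pairs of TPM1, ACTA2, VCL, MYL9 and FLNA lie above 0, whereas those of SRF and TPM2 lie on both sides of it.

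The lists of known targets of the SRF branches had different counts. Of 30 other MRTF-SRF targets tested, 0 were higher and 1 was lower, where 0.505% of all genes were higher and 0.845% lower. The 1 called was CCN2 (listed as CTGF), a matricellular protein also driven by YAP. CCN2 was 189, 168 and 171 FPKM in Vector and 99.4, 91.4 and 89.2 FPKM in oeCSGALNACT2 cells, at -0.91 on the log2 scale (SE 0.15, adjusted p = 0.0487, limma). This call was lost in 10 of 19 alternative settings, the removal of any 1 library among them, with adjusted p from 0.0509 to 0.296 in limma or edgeR. The list was split around 0, with 14 genes above and 16 below it and a median of -0.07, and with the replicate block 6 were higher and 10 lower (21.2% and 22.5% of all genes). Of 13 TCF-SRF immediate early targets tested, 12 had a log2 fold change below 0. The median was -0.81, beside -0.01 over all genes tested, with 2 called lower (0.845% of all genes) and 0 higher (0.505%). EGR1, FOSB, NR4A1 and FOS averaged 0.27, 0.63, 0.86 and 0.98 FPKM in oeCSGALNACT2 cells. These genes reached the filter of 1 FPKM only through the Vector libraries, which favors values below 0 in this count. With the block, which called 22.5% of all genes lower and 21.2% higher, 9 of the 13 targets were lower and 1 higher (BTG2). BTG2 was no longer called after the GC correction with the block (adjusted p = 0.0566, limma). In that fit 10 targets were lower, where 2471 of 11476 genes were lower. The difference between the lists was not tested.

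EGR1, a zinc finger transcription factor, was 15.2, 22.4 and 20.7 FPKM in Vector and 0, 0.468 and 0.349 FPKM in oeCSGALNACT2 cells (log2 fold change -4.01, SE 0.23, adjusted p = 0.00302, limma). DUSP1, a phosphatase of MAP kinases, was 92.5, 129 and 137 FPKM in Vector and 21.8, 23.5 and 21.0 FPKM in oeCSGALNACT2 cells (log2 fold change -2.36, SE 0.20, adjusted p = 0.00973, limma). The call of EGR1 held in all 19 settings, with adjusted p up to 0.0437, and that of DUSP1 was lost in 4, without replicate 2 or 3 of either group (adjusted p from 0.0709 to 0.0944, limma). Both were separated between the groups in all libraries, in contrast to SRF, whose own level overlapped.

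**Figure D5:**
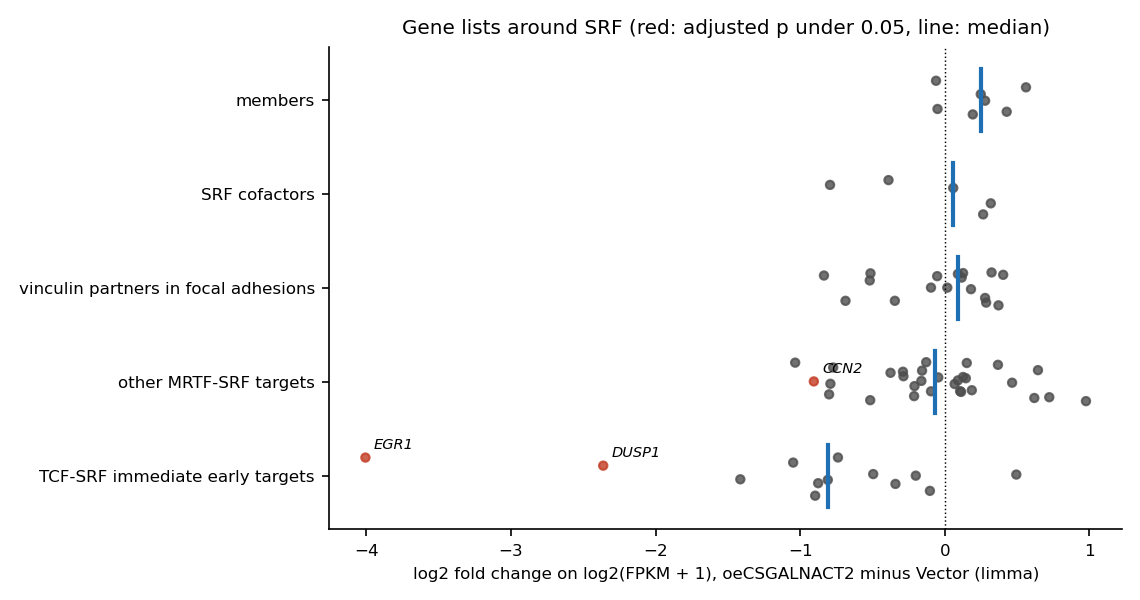
Each point is a gene tested with limma, placed by its log2 fold change (oeCSGALNACT2 minus Vector, on log2(FPKM + 1)), in rows for the members and for 4 lists around SRF, with small random vertical shifts. Blue lines are medians, from 0.25 for the members to -0.81 for the TCF-SRF immediate early targets, and the genes with an adjusted p under 0.05 are drawn in red (EGR1, DUSP1 and CCN2).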

How the data were processed

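HEY cells were profiled by RNA-seq in 6 libraries, assigned to groups and replicate numbers by their labels. The authors deposited whole read counts per gene without normalization, and FPKM values scaled by gene length and library size. No source used here gives the aligner, counter or strand setting. The titles of the overexpression samples name CSGALNACT1 and their descriptions CSGALNACT2. The build in the submitters' processing notes is mm10, but all 58735 genes have IDs and positions of GENCODE 29 on GRCh38, used for gene coordinates. The deposited counts were at hand for 1310 genes, and the planned edgeR test gave way to limma. Reads recovered from the FPKM values were whole (within 0.01 read) for 100% of values above 0 and equalled all 1310 counts.

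The 11479 genes that averaged 1 FPKM or more were compared with limma 3.58.1 (R 4.3.3, variance trend) on log2(FPKM + 1), so fold changes of low genes are understated. P-values were adjusted by Benjamini and Hochberg over all of them, at 0.05. Deviations from the group means correlated at 0.81, 0.631 and 0.686 between libraries of the same number. They correlated at 0.59 and 0.682 between numbers 2 and 3, so the pairing within these 2 numbers is hardly set by the values. The replicate block was used as the paired fit by number, a pairing that the labels do not state. Alternatives were a pseudocount of 0.1, other filters, TMM factors, left-out libraries, and edgeR 4.0.16 and DESeq2 1.42.0 on recovered reads. Removal of the GC trend (lowess, span 0.3) was added after seeing the data. The scripts were tested on simulated data. Intervals of limma cover the scatter between libraries, and floors (3 reads) cover counting error only.

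The members and lists were chosen with earlier results of these data known. Named are all members, up to 4 list genes past the threshold with the smallest p or else the 2 most abundant, and relatives of at least 1 FPKM; some items of this rule are not reported here. Other genes (MRTFA, ELK4, MYOCD, MYL6, MYH10, MYL12A, BTG2, MYH11, EPCAM, CDH1, MUC16, TAGLN3 and genes that overlap a member) were chosen after their values were seen.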

Additional observations from a re-analysis of the deposited data

How the results depend on the processing

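The count of members higher in oeCSGALNACT2 cells was 0 in the main test, where 0.505% of all genes were higher. It was 3 with the replicate block (21.2% of all genes) and 5 in replicates 2 and 3 alone (21.1%). TAGLN was among these 5, and it reached the FPKM filter there only through the oeCSGALNACT2 libraries. The count was 5 with edgeR and the replicate block (22.2%), 1 with DESeq2 (1.94%) and 1 after the GC correction (11.9%). After this correction plus the block it was 3 (21.1%). It was 0 under each of the other settings, and no member was lower in any of the 19. Some settings with a count of 0 called almost no gene, such as 1 higher of 11494 without oeCSGALNACT2 replicate 2. In limma the block changed the calls of TPM1, ACTA2 and VCL and of no other member. The log2 fold change of SRF turned from -0.05 to 0.061 in replicates 2 and 3 alone and to 0.024 with edgeR, and that of TPM2 from -0.06 to 0.094 in replicates 2 and 3 alone. With each library left out in turn, log2 fold changes ranged from -0.32 to 0.33 for SRF, -0.17 to 0.58 for MYL9, -0.21 to 0.17 for TPM2 and -0.37 to 0.83 for FLNA. For genes of the lists, the ranges were -0.21 to 0.33 for ELK1, -0.24 to 0.70 for MYH9, -0.034 to 0.90 for ACTN4, -0.30 to 0.60 for TLN1 and -0.025 to 0.65 for MRTFA, and after the GC correction, with or without the block, ELK1 was at -0.042 and TLN1 at -0.012. Of 133 values of members under these settings, 107 kept their direction and side of the threshold, 15 passed it and 11 turned direction. The cause was not tested. With 3 libraries per group and replicate 1 apart in both, differences of SRF, MYL9 and FLNA under the size of their intervals were not detectable without the block.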

Other observations

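TAGLN3, a transgelin of neurons, went in the direction opposite to TAGLN. TAGLN3 measured 1.19, 0.928 and 1.25 FPKM in Vector and 0.549, 0.131 and 0.0611 FPKM in oeCSGALNACT2 cells, without overlap, and was below the level tested.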
